A study of Cricetulus griseus with 19 samples.

Results

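Dicer1 and Smu1 encode proteins that act on RNA, and the 2 transcript targets that carry their names were followed through 19 libraries of a Chinese hamster cell line. Dicer1 is the RNase III enzyme that cuts hairpin precursors into mature microRNA duplexes, which are then loaded onto Argonaute proteins and guide them to messenger RNAs. Smu1 is a WD40-repeat protein of the spliceosome, known from human cells to work with the protein RED (gene Ik) at the step where the assembled spliceosome is activated. Ovary-derived CHO cells use both processes for ordinary gene expression, and neither gene is specific to this cell type.

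The members were found by their RefSeq accessions, which map 1 target to Dicer1 (NM_001244269.1, 5818 nt) and 1 target to Smu1 (NM_001244852.1, 1542 nt), out of 46718 targets in all. The members were chosen by their measured counts, because these single targets lay near 0 in cultures with uncontrolled growth, so their difference from that group is given as a description and supports nothing. The index also holds 46184 predicted transcripts that matched no symbol, and these may include further transcripts of both genes. A level below is therefore the level of 1 named target and not of its gene. The estimated counts bear on this directly. Each member was above 0 in 16 of 19 libraries, and in none of those 16 was its count a whole number (tolerance 1e-06), which means that the quantifier divided reads between the member and at least 1 similar target. Of all targets detected in any library, 47.6% likewise never had a whole count above 0. Which targets shared the reads could not be read from the files, and no sequences of the members were used here.

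All libraries came from Paradaux cells, a derivative of the CHO-K1 line that carries an inserted synthetic circuit through which cells sense and control their own number, and the target for this insert was detected in every library, controls included (1227 to 2222 CPM). The groups were 7 cultures under paradoxical feedback (a signal that drives growth as well as death), 7 under negative feedback (the signal limits growth), 4 long-term cultures with uncontrolled growth, and 1 library of the parental line. Cells were grown for 2 days below 80% confluence before polyadenylated RNA was taken. No label states that the cultures of a condition were kept apart throughout, so the spread between them, and any p-value, may be partly technical.

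Each library held between 9.91 and 13.2 M estimated counts, so 3 counts, the floor used for a target at 0, corresponded to 0.231 to 0.294 CPM. Here CPM are counts scaled to a library of 1 M by the TMM-scaled library size, and the floor covers counting error only. Libraries of the negative feedback group stood apart from each other: targets under 800 nt took 13.3 and 14.1% of the counts in cultures 2 and 1, but 6.12 to 7.22% in cultures 3 to 7. The same share was 8.50 to 12.4% under paradoxical feedback, 12.2 to 13.4% in uncontrolled cultures and 11.8% in the parental library. Of 6 genes listed as markers of CHO cells, 3 had a target that was tested, and Pcna and Gapdh were detected in every group. Their Actb companion, a target for beta-actin with shared reads, stayed at or below 1.28 CPM in every library, although it was on the same list. None of the 5 listed markers of other cell types matched a target, so the makeup of the cultures was not tested.

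Dicer1 was lower under paradoxical feedback than in negative feedback cultures 3 to 7, and higher than in all other libraries. In paradoxical feedback cultures 1 to 7 the Dicer1 target stood at 13.3, 11.6, 22.0, 4.37, 7.64, 13.4 and 16.8 CPM. In negative feedback cultures 1 to 7 it stood at 0, 0.229, 74.6, 64.6, 49.3, 53.9 and 49.6 CPM. Uncontrolled cultures 1 to 4 held 0, 0, 0.437 and 0.666 CPM, and the parental library held 0.807 CPM. Thus every paradoxical feedback culture lay above all uncontrolled cultures and the parental library. The negative feedback group overlapped with the uncontrolled group through cultures 1 and 2 alone, whereas its other cultures formed the highest values of the series. In bulk RNA, fewer cells with the transcript and less transcript per cell cannot be told apart.

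The read numbers behind these levels were small in the low libraries. Dicer1 had 56.5 to 243 estimated counts under paradoxical feedback and 581 to 880 in negative feedback cultures 3 to 7. It had 0 and 2.36 in negative feedback cultures 1 and 2, and 0, 0, 5.53 and 7.87 in uncontrolled cultures. The parental library had 9.62. Paradoxical feedback cultures averaged 12.7 ± 5.78 CPM and negative feedback cultures 41.8 ± 29.8 CPM (SD, n = 7 each), against 0.276 ± 0.332 CPM in the uncontrolled group (SD, n = 4).

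Smu1 had the same low libraries, with negative feedback cultures 3 to 7 again highest and the paradoxical feedback cultures between. In paradoxical feedback cultures 1 to 7 the Smu1 target stood at 9.25, 11.3, 13.1, 11.8, 1.46, 5.37 and 13.8 CPM. In negative feedback cultures 1 to 7 it stood at 0.326, 0, 26.0, 26.5, 28.3, 22.8 and 23.9 CPM. Uncontrolled cultures 1 to 4 held 0.280, 0.267, 0 and 0.652 CPM, and the parental library was at 0, which allows up to 0.252 CPM. Paradoxical feedback culture 5 was closest to the low libraries, at 2.23 times the highest of them. Estimated counts of Smu1 were 14.9 to 172 under paradoxical feedback and 245 to 346 in negative feedback cultures 3 to 7, against 0 to 7.71 in uncontrolled cultures. Paradoxical feedback cultures averaged 9.43 ± 4.50 CPM and negative feedback cultures 18.3 ± 12.5 CPM (SD, n = 7 each), against 0.300 ± 0.268 CPM in the uncontrolled group (SD, n = 4).

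**Figure D1:**
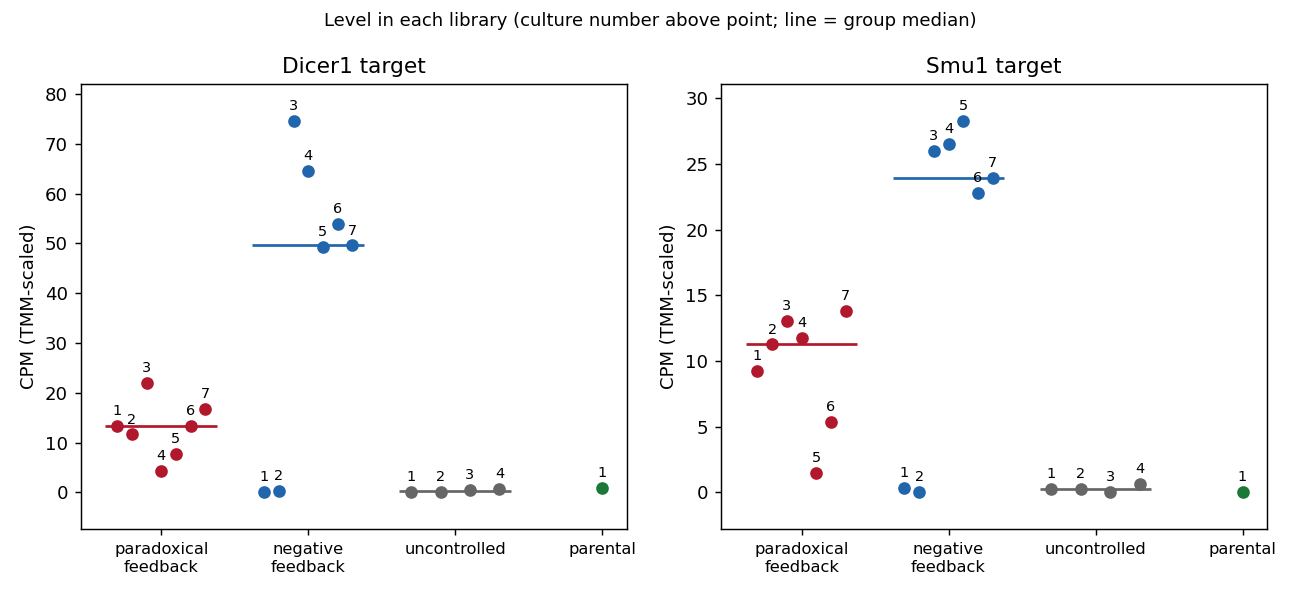
CPM of the Dicer1 and Smu1 targets in each of 19 libraries, by culture condition, with culture numbers above the points and group medians as lines. Negative feedback cultures 3 to 7 sit at 49.3 to 74.6 CPM for Dicer1 and 22.8 to 28.3 CPM for Smu1, while cultures 1 and 2 sit with the uncontrolled cultures near 0.

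Set against the uncontrolled group, the fitted log2 fold changes of both targets were large and carried large errors. For Dicer1 they were 5.40 ± 1.55 under paradoxical feedback and 7.11 ± 1.68 under negative feedback, and for Smu1 4.92 ± 1.40 and 5.88 ± 1.47 (edgeR, ± SE). These contrasts chose the members and share the same 4 uncontrolled libraries. Both targets were called higher in both, where 4.93% of the 28555 tested targets were called higher under paradoxical feedback and 8.65% under negative feedback, and nothing is read from these calls. The negative feedback values joined unlike cultures: without cultures 3 to 7 they were -1.49 ± 1.47 for Dicer1 and -0.70 ± 1.31 for Smu1.

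Paradoxical against negative feedback, as a comparison, was not part of the choice of members, although their levels in all groups were known. Neither target was called. The log2 fold change was -1.71 ± 0.99 for Dicer1 (edgeR adjusted p = 0.413, unadjusted p = 0.103) and -0.96 ± 0.92 for Smu1 (edgeR adjusted p = 0.692, unadjusted p = 0.311). DESeq2 gave adjusted p of 0.326 for Dicer1 and 0.633 for Smu1. Over all targets 0.27% were called in either direction in this comparison, 47 higher and 30 lower of 28555.

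The sign and size of this difference changed, for both members, with the method applied to the unlike negative feedback cultures. By limma-voom, fitted on log2 values, it was 0.08 ± 1.38 for Dicer1 and 0.35 ± 1.18 for Smu1 (± SE). The edgeR value compares fitted mean counts, which cultures 3 to 7 dominate. As a difference of mean log2 CPM it was -0.07 for Dicer1 and 0.16 for Smu1 (exact two-sided permutation p = 0.961 and 0.914, 3432 arrangements, adjusted 0.961 for both, smallest possible p 0.000583). These log2 values include a prior count of 2, added before the log, which is of the same order as the counts of cultures 1 and 2. The part of this offset in the sign was not tested. With negative feedback cultures 3 to 7 left out, the log2 fold change was 6.91 for Dicer1 and 5.64 for Smu1, a description only, since the 2 cultures kept are those near 0 and fix its direction. Taken culture by culture, the lowest of cultures 3 to 7 was 2.24 times the highest paradoxical feedback culture for Dicer1 and 1.65 times for Smu1, and cultures 1 and 2 lay below all paradoxical feedback cultures.

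Under paradoxical feedback the coefficient of variation was 45.4% for Dicer1 and 47.7% for Smu1 (n = 7). The highest Dicer1 level was 5.05 times the lowest. The highest Smu1 level was 9.49 times the lowest, and 2.57 times without culture 5. In negative feedback cultures 3 to 7 the coefficients of variation were 18.8% for Dicer1 and 8.57% for Smu1. The cultures at the ends were not the same for each member. Dicer1 was lowest in paradoxical feedback culture 4, where Smu1 was at 11.8 CPM, near its median of 11.3 CPM. Smu1 was lowest in culture 5, where Dicer1 was second lowest. Over all 19 libraries the Pearson correlation of their log2 CPM was 0.92, which reflects the gap between low and high libraries, and within the 7 paradoxical feedback cultures it was 0.32.

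**Figure D2:**
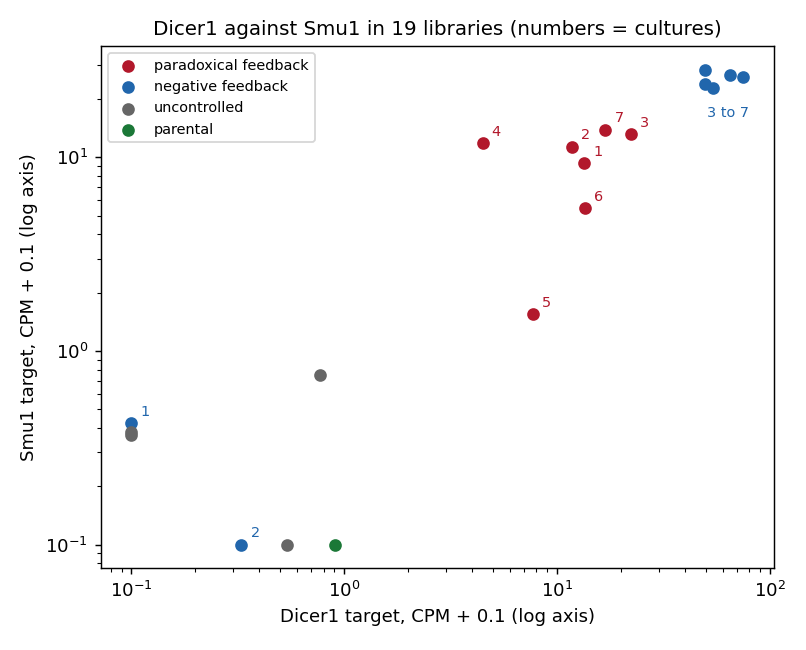
Dicer1 CPM (horizontal) against Smu1 CPM (vertical), both with 0.1 added and on log axes, with 1 point per library coloured by condition. Negative feedback cultures 3 to 7 lie together at the top right, the paradoxical feedback cultures spread below them, and negative feedback cultures 1 and 2 lie with the uncontrolled and parental libraries.

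CPM does not allow for the length of a target, and the order of the members turned round per length. In CPM, Dicer1 was above Smu1 in 11 of the 12 libraries made up of all paradoxical feedback cultures and negative feedback cultures 3 to 7, the exception being paradoxical feedback culture 4. In TPM, which divides by effective length, Smu1 was above Dicer1 in 11 of the same 12, the exception being paradoxical feedback culture 5. Smu1 was at 1.04 to 14.0 TPM under paradoxical feedback and at 25.3 to 31.5 TPM in negative feedback cultures 3 to 7, while it was at 0 to 0.583 TPM in uncontrolled cultures. Dicer1 was at 0.956 to 4.16 TPM under paradoxical feedback and at 11.8 to 18.9 TPM in negative feedback cultures 3 to 7, while it was at 0 to 0.134 TPM in uncontrolled cultures. The ratio of Smu1 to Dicer1 in TPM was 0.846 to 12.0 under paradoxical feedback (median 3.09) and 1.55 to 2.55 in negative feedback cultures 3 to 7 (median 1.88).

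The share of counts on short targets, a property of the whole library, was mostly lower in the libraries with high levels of the members, with some overlap. In the 12 libraries with the higher levels this share was 6.12 to 12.4%, and in the 7 low libraries it was 11.8 to 14.1%. Within the 7 paradoxical feedback cultures, Smu1 CPM was lower where the share was higher (Pearson r = -0.96, Spearman rho = -0.89, and r = -0.69 over the 5 cultures left without cultures 5 and 6). For Dicer1 the same values were -0.40, -0.39 and -0.31. The part of this library property in the levels was not tested. Both measures come from the same libraries, and the negative feedback cultures fall into separate sets, so no value over all libraries is given.

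**Figure D3:**
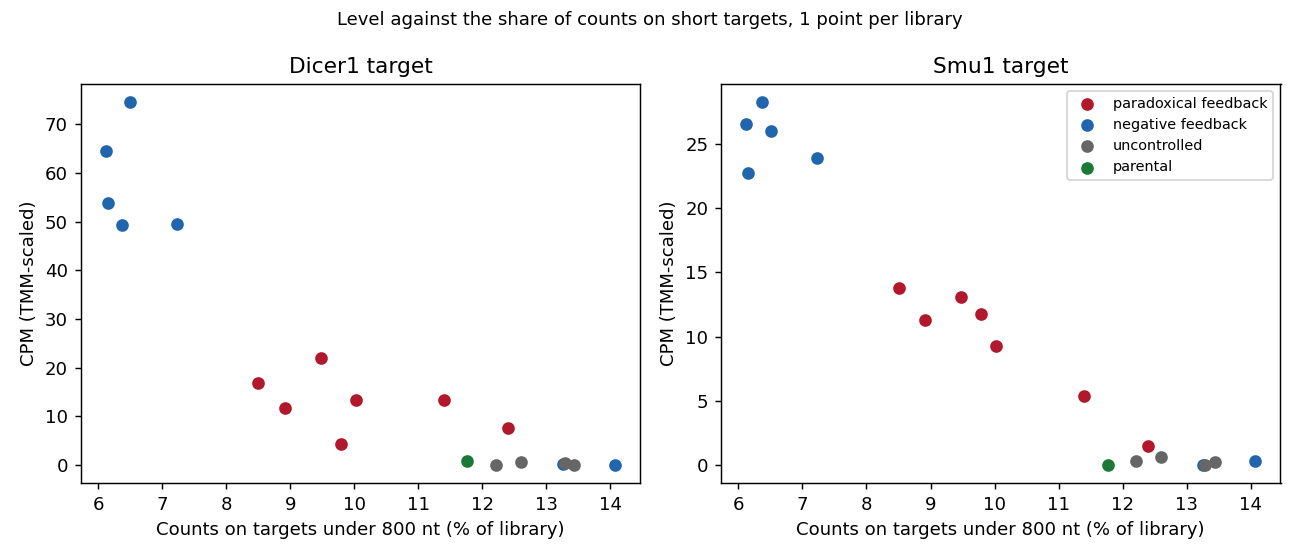
CPM of the Dicer1 and Smu1 targets against the percentage of each library's counts on targets under 800 nt, 1 point per library. Negative feedback cultures 3 to 7 have the lowest shares (6.12 to 7.22%) and the highest levels. For Smu1 the paradoxical feedback cultures form a mostly descending row, whose culture 5 (12.4%) lies within the range of shares of the low libraries.

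The ordering of libraries seen for the members was shared by many other targets. Of 28555 tested targets, 1278 (4.48%) had all paradoxical feedback cultures and negative feedback cultures 3 to 7 above the other 7 libraries, and 1173 (4.11%) had all 12 below the other 7. Of 283 tested named targets, meaning protein-coding ones with a symbol, 53 were of the first kind and 13 of the second. The members' full order also had negative feedback cultures 3 to 7 above all paradoxical feedback cultures. It was met by 398 of the tested targets (1.39%), 19 of them named, both members included. A stricter form of the first kind had the 7 low libraries all under 1 CPM and a highest level over 10 CPM. That form was met by 47 targets (0.165%), of which Dicer1, Smu1, Ccnd1 and Gphr were named. These limits were chosen after the members' values were seen. Of the 47, 97.9% had shared reads, as against 79.2% of all tested targets.

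Near-0 levels in the uncontrolled group were also found in other named targets. The same counts over all tested targets were not made, and the filter can keep a low target through its higher groups. In all, 35 of the 283 named targets were under 1 CPM in all 4 uncontrolled cultures, and 9 of these exceeded 10 CPM elsewhere. Ranked by the highest CPM elsewhere, which is not a level per length, Dicer1 came first at 74.6 CPM, then Canx at 46.8 CPM, Smu1 at 28.3 CPM and Gnaq at 26.4 CPM. Canx, a chaperone of the endoplasmic reticulum, was named after its values were seen. All 9 had shared reads. Of the 333 protein-coding targets with a symbol, tested or not, 189 had whole counts in all 19 libraries. Among the 35, Pld1, Folr1 and Gpx7 had whole counts and the rest had shared reads. The limit of 10 CPM left these whole-count targets out. Pld1 reached 8.91 CPM elsewhere, against at most 0.93 CPM in uncontrolled cultures. Since no threshold was given for near 0, the values at its edge are a description: Dicer1 reached 0.666 CPM and Smu1 0.652 CPM in uncontrolled culture 4, and Gphr, at 0.850 CPM, was the highest of the 9 in that group.

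Of these 35 named targets, 6 listed from earlier results of these data are given for comparison. Gnaq, a G protein alpha subunit, was at 0.392 to 3.63 CPM under paradoxical feedback and 0.179 to 26.4 CPM under negative feedback, against 0 to 0.423 CPM in uncontrolled cultures. Ccnd1, the cyclin that starts G1 progression, was at 2.31 to 6.11 CPM and 0.427 to 20.6 CPM in the same order, against 0.0887 to 0.748 CPM. Gbf1, which activates Arf at the Golgi, was at 0 to 1.29 CPM under paradoxical feedback and 0.665 to 19.3 CPM under negative feedback, against 0 to 0.265 CPM in uncontrolled cultures. Paradoxical and uncontrolled cultures overlapped for Gnaq and Gbf1, but not for Ccnd1. Slc35a3, a Golgi sugar-nucleotide transporter, had a median of 0 CPM under paradoxical feedback (highest 3.01 CPM) and 8.65 CPM under negative feedback, and was at 0 in every uncontrolled culture. Mgat1, a glycan-branching enzyme, was at 1.46 to 3.30 CPM under paradoxical feedback and 0.240 to 9.35 CPM under negative feedback, against 0 to 0.344 CPM. Mbtps2, a protease that releases membrane-bound transcription factors, was at 0.138 to 0.899 CPM under paradoxical feedback and 0.125 to 9.88 CPM under negative feedback, against 0 to 0.459 CPM. Paradoxical and uncontrolled cultures thus overlapped for Gnaq, Gbf1, Slc35a3 and Mbtps2, and did not for Ccnd1, Mgat1, Dicer1 or Smu1. The share of all tested targets without such an overlap was not counted. All of these targets were chosen with their near-0 uncontrolled levels known, so nothing is read from this split. In paradoxical against negative feedback none of the 6 was called by edgeR, with log2 fold changes from -3.55 ± 1.07 for Gbf1 to -1.25 ± 0.72 for Mgat1 (adjusted p 0.0985 to 0.407), beside -1.71 for Dicer1 and -0.96 for Smu1. Of the 6, 5 had an unadjusted edgeR p under 0.05, as had 17.6% of all tested targets. DESeq2 called 3 (Gbf1, Gnaq and Mbtps2), and 1794 targets in all. The 6 were listed with results of these data known, so these counts are a description. The fold changes of the 6 too joined unlike cultures. In negative feedback cultures 1 and 2 each of the 6 was at 0.920 CPM or lower, and in cultures 3 to 7 each was at 2.44 CPM or higher (11.1 to 26.4 CPM for Gnaq, 13.3 to 20.6 CPM for Ccnd1). Without cultures 3 to 7 the log2 fold changes were 3.38 for Gnaq, 3.05 for Ccnd1, 3.12 for Mgat1, 0.74 for Mbtps2 and -0.06 for Gbf1, so the direction turned for all of these but Gbf1. Slc35a3 was at 0 in both negative feedback cultures kept, and no fold is given for it. As for the members, the choice of the low cultures shapes these values. Whether the members differ from these targets was not tested.

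**Figure D4:**
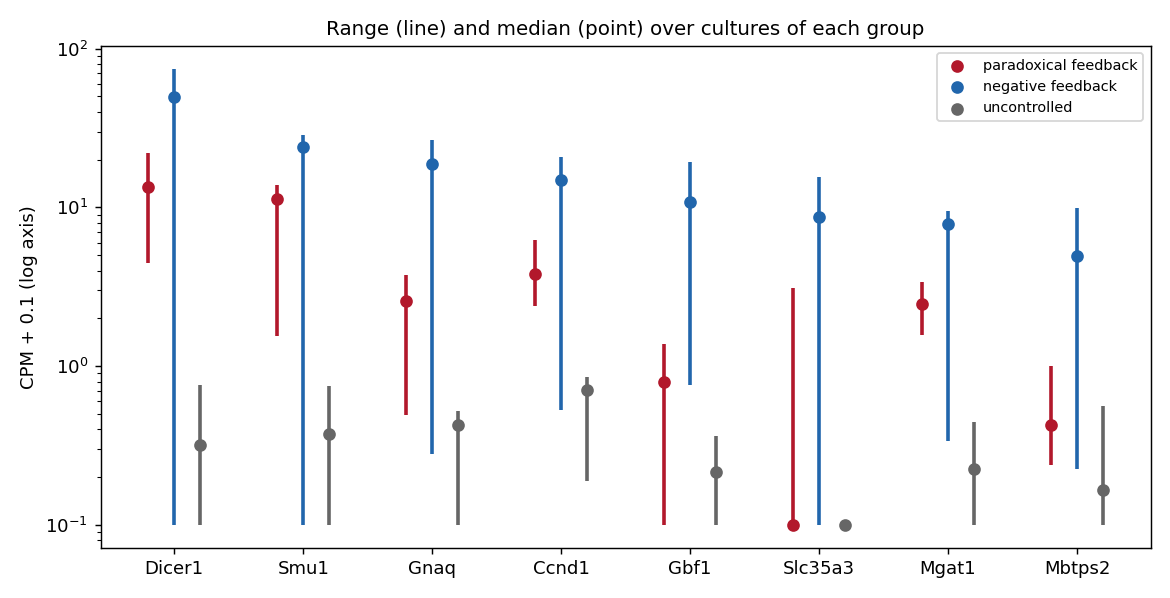
CPM + 0.1 on a log axis for Dicer1, Smu1 and 6 listed targets of the 35 named ones under 1 CPM in uncontrolled cultures, with lines from the lowest to the highest culture of a group and points at its median. The paradoxical feedback line lies clear of the uncontrolled line for Dicer1, Smu1, Ccnd1 and Mgat1, and overlaps it for Gnaq, Gbf1, Slc35a3 and Mbtps2. How many of all tested targets lie clear in this way was not counted.

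Other genes of the members' pathways could be followed only in part. Of 27 listed genes of the microRNA pathway besides Dicer1, 1 matched a target, and none of 46 spliceosome genes or 42 splicing regulators did, Ik included. The matched gene was Tsn, which encodes translin, a subunit of a small nuclease complex that takes part in RNA interference. The Tsn target, with shared reads, stood at 22.0 to 32.1 CPM under paradoxical feedback and 10.5 to 55.4 CPM under negative feedback, against 9.97 to 14.5 CPM in uncontrolled cultures. Its log2 fold change was 1.03 ± 0.39 under paradoxical feedback (edgeR adjusted p = 0.108), 1.69 ± 0.40 under negative feedback (adjusted p = 0.0239), and -0.66 ± 0.32 between paradoxical and negative feedback (adjusted p = 0.291). It was thus called higher in the second of these comparisons, a call lost without any 1 of uncontrolled cultures 1 to 4 (log2 fold changes of 1.59 to 1.84 over all cultures left out in turn, highest adjusted p = 0.0781). In negative feedback cultures 1 and 2 Tsn was at 12.8 CPM or lower, within the uncontrolled range, and in cultures 3 to 7 at 46.0 CPM or higher.

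Chaperones that help load small RNAs onto Argonaute were represented by 3 of 10 listed genes, all with whole counts. Hspa8, the constitutive Hsp70, and Hsp90aa1 and Stip1, which form and bridge the Hsp90 machine, have many other clients. Set against uncontrolled cultures, all 3 were called higher under paradoxical feedback (median log2 fold change 1.21). The median was 0.02 over all tested targets, with 4.93% called higher, and 0.55 over the 283 named targets, with 19.8% called higher. Under negative feedback 1 of the 3, Hsp90aa1, was called higher (1.20 ± 0.30, edgeR adjusted p = 0.0252; list median 0.96). The median was 0.04 over all tested targets, with 8.65% called higher, and 0.43 over the named ones, with 27.9% called higher. Here too the negative feedback cultures stood apart: cultures 1 and 2 held 522 to 553 CPM of Hsp90aa1, while the other 5 held 1107 to 1553 CPM. When those 5 were left out, the log2 fold change over uncontrolled cultures was 0.16 for Hsp90aa1 (edgeR adjusted p = 1), -0.10 for Hspa8 and 0.09 for Stip1. With uncontrolled culture 1 or 2 left out the calls of Hspa8 and Stip1 under paradoxical feedback were lost (log2 fold changes of at least 1.53 and 0.88, highest adjusted p 0.0616 and 0.0638). Those of Hsp90aa1 were lost without any 1 uncontrolled culture, and under negative feedback also without negative feedback culture 4 or 5 (at least 1.08 and 1.09, highest adjusted p 0.0850 and 0.0794). Between paradoxical and negative feedback none was called, with edgeR adjusted p of 0.120 for Stip1, 0.185 for Hspa8 and 0.990 for Hsp90aa1, a list median of 0.52 against -0.06 over all targets. For 2 of the 3 the unadjusted edgeR p was under 0.05, as it was for 17.6% of all tested targets, and DESeq2 called none. Unlike the Dicer1 target, the targets of these 3 genes were well detected in every library. Hspa8 stood at 2494 to 4821 CPM under paradoxical feedback, 1022 to 3366 CPM under negative feedback and 885 to 1875 CPM in uncontrolled cultures.

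The named targets whose levels most resembled those of Dicer1 over the 19 libraries were Gna11, a G protein alpha subunit (Pearson r of log2 CPM 0.98, shared reads), Cdc25b, a phosphatase that activates mitotic kinases (0.98), Cdk2, a cyclin-dependent kinase active on entry into S phase (0.98), Parp1, a DNA repair enzyme (0.98), Cdc25a, another phosphatase of that family (0.97) and Furin, a secretory protease (0.97, shared reads). The 4 whose reads are not marked as shared had whole counts in every library. For Smu1 they were Gna11 (0.94, shared reads), Ccnd1 (0.94, shared reads), Adss2, an enzyme of adenine nucleotide synthesis (0.94), Gphr, a Golgi membrane protein (0.94, shared reads), B4galt5, a galactosyltransferase (0.94), and Cdc25b (0.93). Of the 282 named targets compared, 42 had an r over 0.9 with Dicer1 and 16 with Smu1, and the medians were 0.58 and 0.52. All points share their libraries and the gap between low and high libraries, so these values rank likeness and show no relation between genes.

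Of these targets, Cdc25b, Cdk2, Parp1, Cdc25a, Adss2 and B4galt5 had whole counts in every library. Levels of Cdk2 and B4galt5 are given as examples. Cdk2 was at 29.5 to 53.2 CPM under paradoxical feedback and 51.9 to 61.0 CPM in negative feedback cultures 3 to 7, against 6.07 to 9.05 CPM in uncontrolled cultures. The parental library held 20.3 CPM of Cdk2, above all uncontrolled cultures and below all paradoxical feedback cultures. B4galt5 was at 2.45 to 9.58 CPM under paradoxical feedback and 13.0 to 16.1 CPM in negative feedback cultures 3 to 7, against 0.474 to 2.71 CPM in uncontrolled cultures, so its groups overlapped at the edge. The part of shared reads in the near-0 levels of Dicer1 and Smu1 was not tested.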

How the data were processed

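Polyadenylated RNA of 19 libraries was quantified by the authors, using Trim Galore and kallisto per the submitters' processing notes, which give no versions. For the build and annotation, the sources used here give no name. Per the file headers, each deposited file gives an estimated count and a TPM for 46718 transcript targets. Targets were named by accession from a RefSeq table of assembly CriGri-PICRH-1.0, used for names only: 527 matched, 333 of them protein coding. Every test was made per target.

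Estimated counts deposited by the authors were rounded for the fits, filtered with filterByExpr (28555 targets left, both members among them), scaled by TMM and fitted with edgeR 4.0.16 (R 4.3.3), with 1 coefficient per group over all libraries. Adjusted p-values are Benjamini-Hochberg over all tested targets, called under 0.05. Standard errors are the log2 fold change divided by the root of F. Printed CPM use unrounded counts, and log2 CPM use rounded counts with a prior count of 2. The TPM deposited by the authors was used to compare levels per length. The fit was tested on simulated data. Alternatives were other scalings, DESeq2 1.42.0, limma-voom (limma 3.58.1), no filter, fewer groups, a replicate block and libraries left out.

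The members and lists were chosen with earlier results of these data known. Besides the members, the text names 6 targets most correlated with each, tested list members and 6 listed near-0 symbols. Genes outside these are marked, apart from those that fall in a counted set.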

Additional observations from a re-analysis of the deposited data

How the results depend on the processing

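Depth limits the low libraries, where 3 counts or fewer cannot be told from 0, and shared reads add an error that the files do not show. For paradoxical against negative feedback 77 targets were called. The count was 42 with library size alone, 11 with median-ratio size factors, 1794 by DESeq2, 297 by limma-voom, 2 without a filter, 2454 without negative feedback cultures 3 to 7, and 0 by edgeR both with the replicate block and with only the 2 groups fitted (3275 and 2920 at an unadjusted p under 0.05). Leaving out 1 culture gave 0 to 989 calls, with 4129 to 4665 unadjusted in the 7 fits with 0. In the same comparison Dicer1 changed sign by limma-voom (0.082) and without cultures 3 to 7 (6.91), and Smu1 by limma-voom (0.35), as a difference of mean log2 CPM (0.16, an alternative chosen after the data were seen) and without cultures 3 to 7 (5.64). Leaving out 1 culture gave -1.93 to -1.51 for Dicer1 and -1.17 to -0.76 for Smu1, never called.

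The contrasts with uncontrolled cultures chose the members, so neither their calls nor the loss of these calls supports anything. For negative feedback against uncontrolled cultures 2787 targets were called, with 6436 by DESeq2, 5039 by limma-voom, 4 with the replicate block, 10 with only the 2 groups, 13 without cultures 3 to 7, and 7 to 6938 with 1 culture left out. Dicer1 was no longer called by limma-voom (6.04), with the block (6.93) or with the 2 groups alone (7.09), and reversed without cultures 3 to 7 (-1.49). For Smu1 these values were 4.81, 5.57, 5.85 and -0.70. With 1 culture left out Dicer1 ran from 6.71 to 7.90 and Smu1 from 5.47 to 6.62, and both calls were lost without any 1 of the uncontrolled cultures.

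For paradoxical feedback against uncontrolled cultures 1835 targets were called, with 4823 by DESeq2, 3 with the replicate block, 4956 with only the 2 groups, 4926 without negative feedback cultures 3 to 7, and 127 to 2141 with 1 culture left out. Dicer1 was not called with library size alone (5.27), median-ratio size factors (5.36), limma-voom (6.12), no filter (5.42) or the block (6.23), nor Smu1 with library size alone (4.82), limma-voom (5.16), no filter (4.93) or the block (4.92). With 1 culture left out Dicer1 ran from 4.99 to 6.19 and Smu1 from 4.51 to 5.67, each called in 1 of 11 fits. The cause of these changes was not tested. Same-numbered cultures showed little likeness: over 15 such pairs the correlation of deviations from group means ran from -0.16 to 0.11. Differently numbered pairs were not compared, and deviations in the negative feedback group include the split between its cultures. These values therefore do not settle whether replicate numbers pair cultures.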
